A study of Danio rerio with 20 samples.

Results

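Sapje-like zebrafish carry a mutation in dmd, the gene for dystrophin, which ties the muscle cell's inner skeleton to the matrix outside it, and they are kept as a fish model of Duchenne muscular dystrophy. The comparison described here set whole sapje-like fish at 30 days post fertilisation (dpf) against whole sapje-like fish at 5 dpf. Its members are the 5 samples whose titles name sapje-like fish at these ages, 2 at 5 dpf and 3 at 30 dpf, out of 20 samples in the series. All 219 probes for mature zebrafish (dre-) microRNAs were read in them. The fish were of the TL strain, received fish water and a shrimp diet and no other treatment that the labels name, and RNA came from 10 fish per cohort. The other 15 samples were sapje, a second dystrophin mutant line, and 2 wild type sets labelled SW and SLW, each with 2 samples at 5 dpf and 3 at 30 dpf. The series' design sets wild type SLW against sapje-like and wild type SW against sapje. The labels name the genotype by the line alone, so the copies of the mutant allele, the muscle phenotype of the fish taken and the survival of their clutch mates are not known here, and the arrays hold no probe for dystrophin that could check the genotype. The labels do not tell whether replicate samples were drawn from different fish, and the p-values then measure only the spread between these samples, which may be technical.

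MicroRNAs are RNAs of about 22 bases that repress messenger RNAs, chiefly by pairing through the seed, bases 2 to 8 from the 5′ end. In vertebrate development some of them work as timers. The miR-430 family clears maternal messages in the zebrafish embryo, and the let-7 family, first known from larval timing in worms, builds up as tissues mature. Others mark a tissue: miR-1, miR-133 and miR-206 striated muscle, miR-122 the liver, miR-9 and miR-124 the nervous system, miR-203 the skin, miR-375 the pancreatic islets, and miR-451 the red blood cells.

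The mature sequences printed here, as the deposited array files give them, are those of 4 seed families in which most or all tested members were called in 1 direction, and of single microRNAs with large changes. They are written 5′ to 3′ with the seed in capitals. The let-7 seed was shared by 10 tested probes, of which 6 are shown.
let-7a: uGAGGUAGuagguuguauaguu
let-7f: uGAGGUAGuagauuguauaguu
let-7c: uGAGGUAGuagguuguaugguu
let-7i: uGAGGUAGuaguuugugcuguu
let-7h: uGAGGUAGuaaguuguguuguu
let-7j: uGAGGUAGuuguuuguacaguu

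The 4 measured members of the embryonic miR-430 family shared another seed.
miR-430b: aAAGUGCUaucaaguugggguag
miR-430a: uAAGUGCUauuuguugggguag
miR-430c: uAAGUGCUucucuuugggguag
miR-430j: aAAGUGCUaucaaauuggggua

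The miR-10 members, whose genes lie within the Hox clusters, had 1 seed and differed from their nearest relative by 1 base.
miR-10a: uACCCUGUagauccgaauuugu
miR-10b: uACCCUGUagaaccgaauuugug
miR-10c: uACCCUGUagauccggauuugu
miR-10d: uACCCUGUagaaccgaaugugug

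The 5 tested miR-130 and miR-454 probes had a seed in common, and the 4 of them that fell are shown.
miR-454b: uAGUGCAAuauugcuuauaggg
miR-454a: uAGUGCAAuauugcuaauaggg
miR-130c: cAGUGCAAuauuaaaagggcau
miR-130b: cAGUGCAAuaaugaaagggcau

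The last set holds both arms of the miR-9 hairpin, both skin-associated miR-203 forms and single tissue microRNAs with large changes.
miR-9: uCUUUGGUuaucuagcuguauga
miR-9*: uAAAGCUAgauaaccgaaagu
miR-203a: gUGAAAUGuuuaggaccacuug
miR-203b: gUGAAAUGuucaggaccacuug
miR-122: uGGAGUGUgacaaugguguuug
miR-375: uUUGUUCGuucggcucgcguua
miR-462: uAACGGAAcccauaaugcagcu
miR-499: uUAAGACUugcagugauguuua

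Each sample was 1 dye channel of a 2-colour array, and levels are given as normalised log2 intensity, the brightness of a probe on a log2 scale after background correction and quantile normalization. That normalization gives every sample the same set of values. Equal levels in 2 samples therefore mean equal rank among the probes, and 14.65 is the highest level a probe can have. Between 105 and 158 of the 219 probes were above background in the sapje-like samples, where background is the median of the empty spots plus 3 times their robust SD. A probe entered the test when 2 or more samples of some genotype and age exceeded background, which left 167 probes and set aside 52. The 2 samples at 5 dpf correlated at r = 0.979 over the tested probes, and 30 dpf replicates 1 and 2 at 0.981. Replicate 3 at 30 dpf stood apart. It had 105 probes above background where the other 4 samples had 139 to 158, its dimmest probe above background was at 7.86 where theirs were at 6.65 to 6.90, and it correlated at 0.923 and 0.942 with replicates 1 and 2. It lay more than 1 log2 unit from the mean of the other 2 samples of its group for 22 tested probes, 12 above and 10 below, whereas replicates 1 and 2 were over 1 unit apart for 3. Of the 54 probes called with age, replicate 3 was not above background for 18 and replicate 2 for 8, and where a group was measured above background in only some samples, its difference rests in part on such readings and no fold is given.

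The microRNA profile of sapje-like fish differed broadly between the samples of the 2 ages. Of 167 tested probes, 54 (32.3%) passed an adjusted p of 0.05 by limma with the Benjamini-Hochberg correction, 25 (15%) of them higher at 30 dpf and 29 (17.4%) lower, and 74 (44.3%) had an unadjusted p under 0.05. In all 54 the samples of the ages did not overlap; over all tested probes, every 30 dpf sample lay above every 5 dpf sample for 29.9% and below for 29.3%. The median difference over all tested probes was -0.04 log2 units and the median size of a called difference was 1.66. Without replicate 3 at 30 dpf, 51 probes passed, 23 higher and 28 lower. Each difference is relative to the middle of the array: with samples scaled on the median of the probes bright everywhere, the median of all tested probes moved to 0.90 and the calls to 80 higher and 19 lower, and with no normalization to -0.39 with 12 higher and 42 lower.

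**Figure D1:**
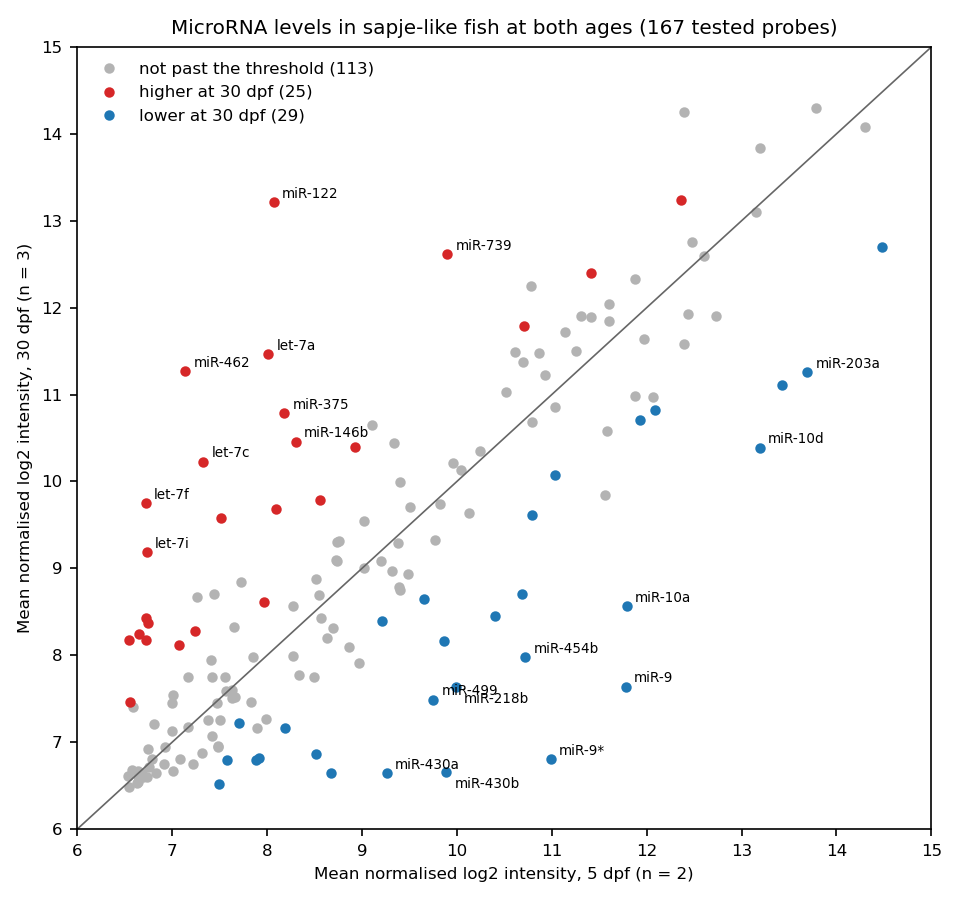
Mean normalised log2 intensity of each of the 167 tested probes in sapje-like fish at 5 dpf (x axis, n = 2) against 30 dpf (y axis, n = 3); the diagonal marks equal levels. Red points passed the limma test as higher at 30 dpf (25), blue as lower (29) and grey points did not pass (113), with miR-122, miR-462 and let-7 members well above the diagonal and miR-9*, miR-9 and the miR-430 probes, which are at the floor at 30 dpf, well below it.

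The let-7 family, which in many animals marks the passage to mature tissue, rose as a whole. All 10 tested let-7 probes passed as higher, against 15% of all tested probes. Their median difference was 1.88 log2 units, where the median over all probes was -0.04. For let-7e, let-7h and let-7j, which entered the test through 30 dpf groups alone, the probe filter favoured a rise. The level of let-7a was 8.01 in each 5 dpf sample and 10.76, 11.34 and 12.30 in the 30 dpf samples. No sample of one age reached the other. The difference was 3.46 ± 0.43 log2 units (standard error of the fit, as throughout; n = 2 and 3), or 11.0-fold, with a limma adjusted p of 3.26e-05. For let-7f, levels of 6.75 and 6.69 at 5 dpf stood against 9.17, 9.80 and 10.27 at 30 dpf, a difference of 3.03 ± 0.50 log2 units and an adjusted p of 0.000331. The ages were again apart in every sample. let-7c was at 7.16 and 7.51 at 5 dpf and at 10.00, 10.07 and 10.61 at 30 dpf, which gave 2.88 ± 0.53 log2 units and an adjusted p of 0.000674.

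The other let-7 members also rose. let-7i went from 6.70 and 6.75 to 8.90, 9.21 and 9.45, a difference of 2.45 ± 0.25 log2 units with an adjusted p of 7.64e-06. let-7d rose by 2.09 ± 0.44 log2 units, let-7b by 1.66 ± 0.43, let-7e by 1.59 ± 0.37 and let-7g by 1.45 ± 0.41, with adjusted p from 0.00197 to 0.0144. let-7b was not above background in 5 dpf replicate 1 nor let-7e in 5 dpf replicate 2. The call for let-7b was lost without 5 dpf replicate 1 and that for let-7g without either 5 dpf sample. Neither let-7h nor let-7j was above background at 5 dpf, so a fold is a bound, set by the mean level of the 30 dpf samples over the lowest signal that would have been above background at 5 dpf. let-7h was at least 2.84-fold higher at 30 dpf, with levels of 6.61 and 6.49 against 7.40, 7.90 and 9.24 and an adjusted p of 0.0029. let-7j, at 6.63 and 6.49 against 7.29, 7.72 and 7.36, passed with an adjusted p of 0.000441, but 30 dpf replicate 3 was not above background either and no fold is given. In 9 of the 10 members replicate 3 was the highest 30 dpf sample, and without it the 10 calls stood with a median of 1.66. The direction was positive for all 10 members under every scaling tried, but fewer were called in some settings. With no normalization 7 of 10 passed, and with the replicate number as a block 9 did. With only the sapje-like samples in the fit 7 passed, and let-7e, let-7h and let-7j lost their calls. Since 7 of the members differ from another by 1 base, a single probe's share of the family's signal is uncertain.

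The let-7 genes have neighbours that did not all move with them. In the RefSeq annotation (assembly GRCz12tu), let-7a lies at 2 loci in a run with miR-100 and miR-125b, each gene at most 10 kb from the next. At other loci let-7a lies beside let-7b, let-7e or let-7f, and let-7g lies beside let-7h, all of them called higher. The let-7a probe cannot tell which locus gave its signal. miR-100 was at 10.27 and 10.20 at 5 dpf and at 10.64, 10.45 and 9.96 at 30 dpf, where the ages overlapped, with a difference of 0.12 ± 0.28 log2 units and an adjusted p of 0.791. miR-125b differed by 0.91 ± 0.36 (adjusted p 0.0687). let-7c lies beside miR-99, with a difference of -0.34 ± 0.50 (adjusted p 0.647), and at 1 locus miR-125c is with them. miR-125c, related to the timing microRNA lin-4 of worms, rose by 1.10 ± 0.33 log2 units from 10.81 and 10.61 to 11.48, 11.68 and 12.22 (adjusted p 0.0201), although its sign turned to -0.25 with no normalization and its call was lost when 5 dpf replicate 1, 5 dpf replicate 2 or 30 dpf replicate 3 was left out. It was the 1 called member of the 5 tested of the miR-99, miR-100 and miR-125 family, whose median was 0.54. That share is near the 15% of all tested probes called higher.

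**Figure D2:**
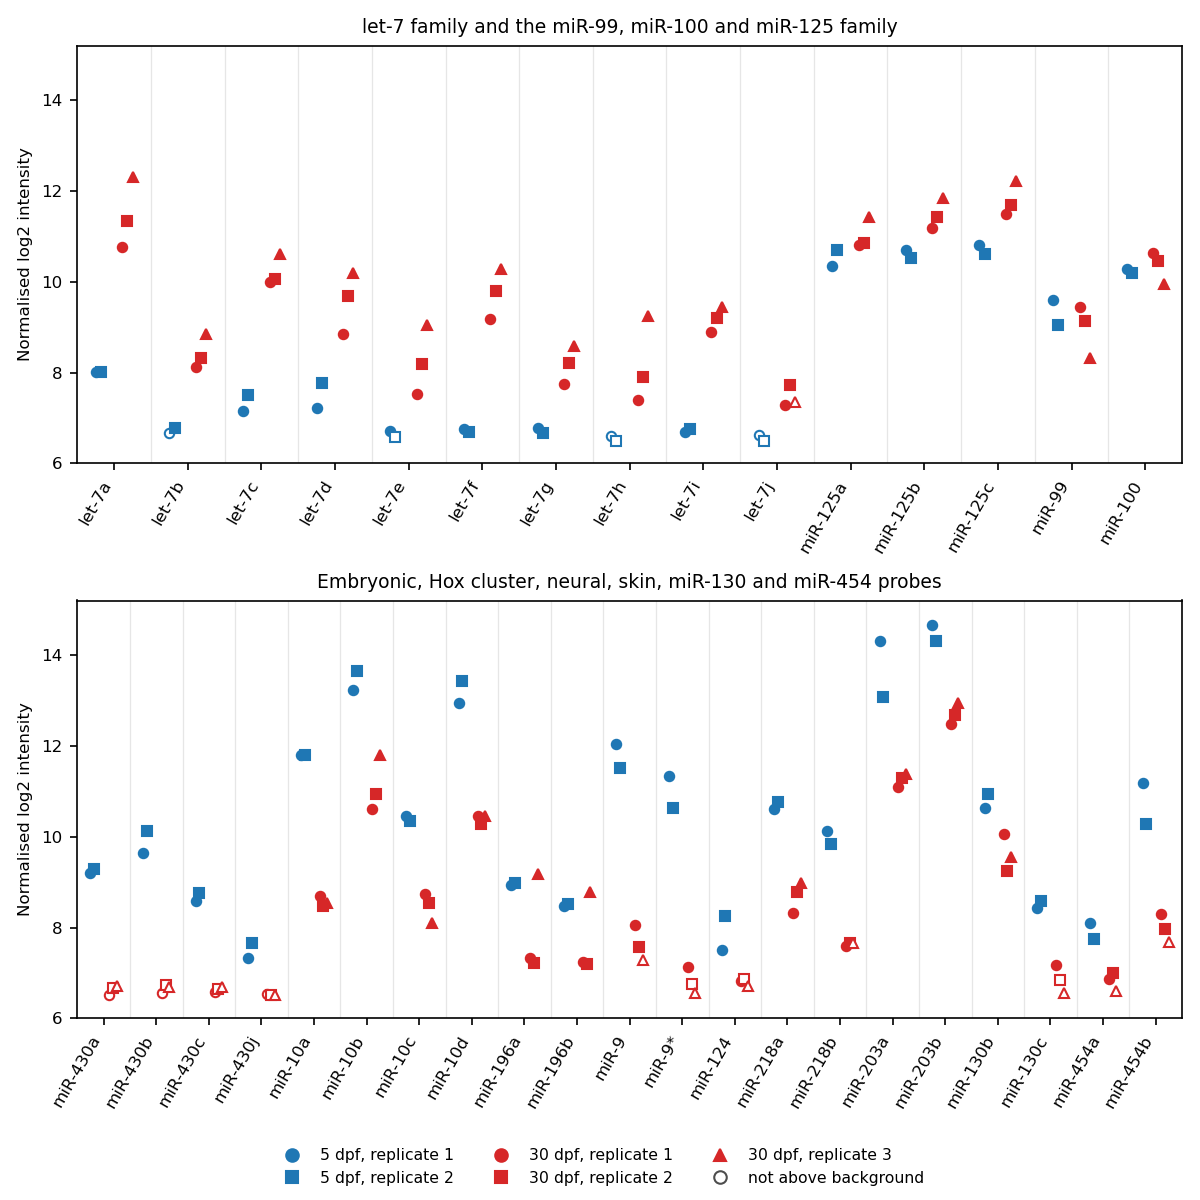
Normalised log2 intensity in each sapje-like sample (5 dpf blue, n = 2; 30 dpf red, n = 3; the shape gives the replicate; open symbols were not above background) for the let-7 family and the miR-99, miR-100 and miR-125 family (top) and for embryonic, Hox cluster, neural, skin, miR-130 and miR-454 probes (bottom). All 30 dpf points of the 10 let-7 probes lie above their 5 dpf points, while the miR-430 probes lie at the floor at 30 dpf.

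The embryonic miR-430 family was measured at 5 dpf and lost from measurement by 30 dpf. All 4 tested members fell, against 17.4% of all tested probes, with a median of -2.32 log2 units. They entered the test through 5 dpf groups alone, so the probe filter favoured a fall and the count is no separate support. miR-430i was not above background in enough samples to be tested, and miR-427 had no probe. None of the 3 samples at 30 dpf was above background for any of the 4, so each fold is a lower bound. miR-430b was at 9.64 and 10.13 at 5 dpf and at 6.55, 6.74 and 6.69 at 30 dpf, at least 6.51-fold lower with an adjusted p of 2.3e-09. miR-430a went from 9.21 and 9.30 to 6.52, 6.68 and 6.71, at least 4.21-fold lower (adjusted p 2.96e-06). For both, the 5 dpf samples stood far above the 30 dpf floor. miR-430c was at least 2.80-fold lower (adjusted p 4.58e-05) and miR-430j at least 1.24-fold lower (adjusted p 0.00171), but miR-430j, the dimmest at 7.32 and 7.66 at 5 dpf, turned to 0.42 under median scaling and miR-430c was no longer called there. In whole fish, fewer cells that hold a microRNA and less of it per cell cannot be told apart, here and in the tissue lists that follow.

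MicroRNAs from the Hox clusters, the gene arrays that pattern the head-to-tail axis, fell in 5 of 7 tested members, against 17.4% of all tested probes, and the median was -1.95 log2 units. miR-10a was at 11.79 in each 5 dpf sample and at 8.69, 8.48 and 8.54 at 30 dpf, a difference of -3.18 ± 0.37 log2 units (9.07-fold) with an adjusted p of 1.62e-05. The 30 dpf samples lay within 0.21 of each other, 30 dpf replicate 3 included. miR-10d went from 12.94 and 13.43 to 10.45, 10.27 and 10.45, a difference of -2.77 ± 0.42 (adjusted p 0.000167). miR-10b went from 13.22 and 13.64 to 10.61, 10.94 and 11.79, a difference of -2.28 ± 0.45 (adjusted p 0.0014), with replicate 3 the least reduced. miR-10c fell by 1.95 ± 0.26 log2 units (adjusted p 5.04e-05). These 4 calls stood under every alternative run, but the probes are 1 base apart, and which member supplied the signal is uncertain. The other strand of one hairpin, miR-10d*, fell by 1.00 ± 0.30 (adjusted p 0.0203), with 30 dpf replicate 3 not above background, but turned to 0.11 under median scaling and lost its call without either 5 dpf sample or without 30 dpf replicate 1 or 2.

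The miR-196 pair, also Hox cluster microRNAs, turned on 1 sample. miR-196a was at 8.94 and 8.99 at 5 dpf, at 7.32 and 7.23 in 30 dpf replicates 1 and 2, and at 9.17 in replicate 3, above both 5 dpf samples. miR-196b showed the same layout, with 8.48 and 8.51 at 5 dpf against 7.25, 7.20 and 8.79. The ages overlapped and the differences, -1.03 ± 0.57 and -0.72 ± 0.51 log2 units, did not pass (adjusted p 0.177 and 0.313). Without replicate 3, all 7 tested Hox cluster probes were called lower.

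Among neural microRNAs, both arms of the hairpin of miR-9, which acts in neural progenitors of the vertebrate brain, fell. miR-9* was at 11.34 and 10.64 at 5 dpf and at 7.13, 6.75 and 6.56 at 30 dpf, of which only replicate 1 was above background, a difference of -4.19 ± 0.27 log2 units (adjusted p 5.76e-08) that rests on 2 readings not above background. miR-9 was at 12.04 and 11.52 at 5 dpf and at 8.06, 7.57 and 7.29 at 30 dpf, where replicate 3 was not above background, a difference of -4.10 ± 0.50 (adjusted p 2.81e-05). No sample of either age came near the other, and both calls stood under every alternative run. The miR-218 pair, known in motor neurons, fell too: miR-218b from 10.13 and 9.85 to 7.60, 7.66 and 7.66, with replicate 3 not above background, a difference of -2.38 ± 0.26 (adjusted p 1.3e-05), and miR-218a from 10.61 and 10.76 to 8.32, 8.79 and 8.99, a difference of -1.96 ± 0.30 (adjusted p 0.000167).

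All 9 tested members of the nervous system list had negative differences, but not all were called. Of the 9, 5 were called lower, against 17.4% of all tested probes. The median was -1.10 log2 units, which was 0.18 under median scaling while the median of all probes there was 0.90. miR-124, abundant in neurons, was at 7.51 and 8.25 at 5 dpf and at 6.83, 6.86 and 6.72 at 30 dpf, of which only replicate 1 was above background, a difference of -1.10 ± 0.27 (adjusted p 0.00662). Its sign turned to 0.18 under median scaling and its call was lost without 5 dpf replicate 2. miR-128, found in mature neurons, was at 9.30 and 9.09 at 5 dpf and 8.99, 9.34 and 8.90 at 30 dpf, where the ages overlapped (difference -0.10 ± 0.22, adjusted p 0.791). The differences of miR-138, miR-132 and miR-212 were -0.54, -0.23 and -0.04 and did not pass. miR-137, miR-219 and miR-132* were not above background in enough samples of any group to be tested.

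Of the sensory and lens list, 2 of 4 tested members fell, against 17.4% of all tested probes, and the median was -0.86 log2 units. miR-184, expressed in the lens and cornea, was at 10.76 and 11.29 at 5 dpf and 9.74, 10.13 and 10.34 at 30 dpf, a difference of -0.94 ± 0.31 (adjusted p 0.0326). That call was lost without 5 dpf replicate 2 or 30 dpf replicate 1 or 2. The call for miR-182, a microRNA of sensory hair cells and photoreceptors, had an adjusted p of 0.0491 for a difference of -0.78 ± 0.28, and 11 of 19 alternatives removed it, among them leaving out either 5 dpf sample or 30 dpf replicate 1 or 2. miR-204, of the eye's pigment epithelium and lens, was at 11.73 and 11.39 at 5 dpf and at 10.86, 10.40 and 8.25 at 30 dpf. All its 30 dpf samples were lower, but they ranged so widely, replicate 3 being lowest, that the difference of -1.69 ± 0.67 did not pass (adjusted p 0.0666).

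Skin-associated miR-203 fell while other epithelial microRNAs showed no call. miR-203a was at 14.30 and 13.08 at 5 dpf and at 11.10, 11.29 and 11.39 at 30 dpf, a difference of -2.47 ± 0.43 log2 units (5.56-fold, adjusted p 0.000441), and the call stood under every alternative run. miR-203b was at 14.65 and 14.30 at 5 dpf and 12.49, 12.67 and 12.94 at 30 dpf, a difference of -1.84 ± 0.43 (adjusted p 0.00466). The ages did not overlap for either probe, and these probes are 1 base apart. They were the 2 called of 9 tested epithelial probes, a share near the 17.4% of all tested probes called lower. miR-205, of stratified epithelium, differed by -0.85 ± 0.40 (adjusted p 0.115), and the miR-200 family, which keeps cells epithelial, spanned -0.50 for miR-429 to 0.34 for miR-200b with overlapping ages. The median of the list was -0.50 log2 units, or 0.10 under median scaling.

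The seed family of miR-130 and miR-454 fell in 4 of 5 tested members, against 17.4% of all tested probes, with a median of -1.19 log2 units. miR-454b was at 11.18 and 10.27 at 5 dpf and at 8.29, 7.96 and 7.69 at 30 dpf, where replicate 3 was not above background, a difference of -2.72 ± 0.38 (adjusted p 9.44e-05) that stood under every alternative run. miR-130c went from 8.44 and 8.59 to 7.18, 6.84 and 6.57, of which only replicate 1 was above background, a difference of -1.68 ± 0.26 (adjusted p 0.00018). miR-130b fell by 1.19 ± 0.34 (adjusted p 0.0155), a call lost without 5 dpf replicate 2 or 30 dpf replicate 2. In the RefSeq annotation these 3 lie in a run of genes, each at most 10 kb from the next, with miR-301b, which was not tested. miR-454a fell by 1.08 ± 0.18 (adjusted p 0.000441), with 30 dpf replicate 3 not above background, turning to 0.26 under median scaling, whereas its neighbour miR-130a differed by -0.12 ± 0.19 (adjusted p 0.659).

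The clusters of miR-17 to miR-92, which promote proliferation in mammals, were called in 3 of 15 tested members, all lower, a share near the 17.4% of all tested probes, with a median of -0.36 log2 units that became 0.42 under median scaling. The 3 came from 1 locus. miR-18c was at 9.91 and 9.80 at 5 dpf and at 8.15, 8.15 and 8.19 at 30 dpf, a difference of -1.66 ± 0.18 (3.17-fold, adjusted p 9.11e-06), with samples of an age closer than 0.12. miR-20b fell by 1.32 ± 0.43 (adjusted p 0.0334) and miR-363 by 0.81 ± 0.27 (adjusted p 0.0338), and miR-363, above background at 30 dpf only in replicate 1, turned to 0.55 under median scaling. Both calls were lost without 5 dpf replicate 1, 30 dpf replicate 2 or 30 dpf replicate 3, and that for miR-20b also without 5 dpf replicate 2. Their neighbour miR-19c differed by -0.36 ± 0.20 (adjusted p 0.189). At the locus of miR-17a, miR-18a, miR-19b, miR-20a and miR-92a, none of 5 was called by limma. Their differences ran from -1.15 for miR-17a (adjusted p 0.0832) to 0.13 for miR-19b. With only the sapje-like samples in the fit, where 36 probes passed against 54, miR-17a passed at -1.04 ± 0.28 (limma adjusted p 0.0482). Without 30 dpf replicate 3, 1 of the 15 members was called.

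**Figure D3:**
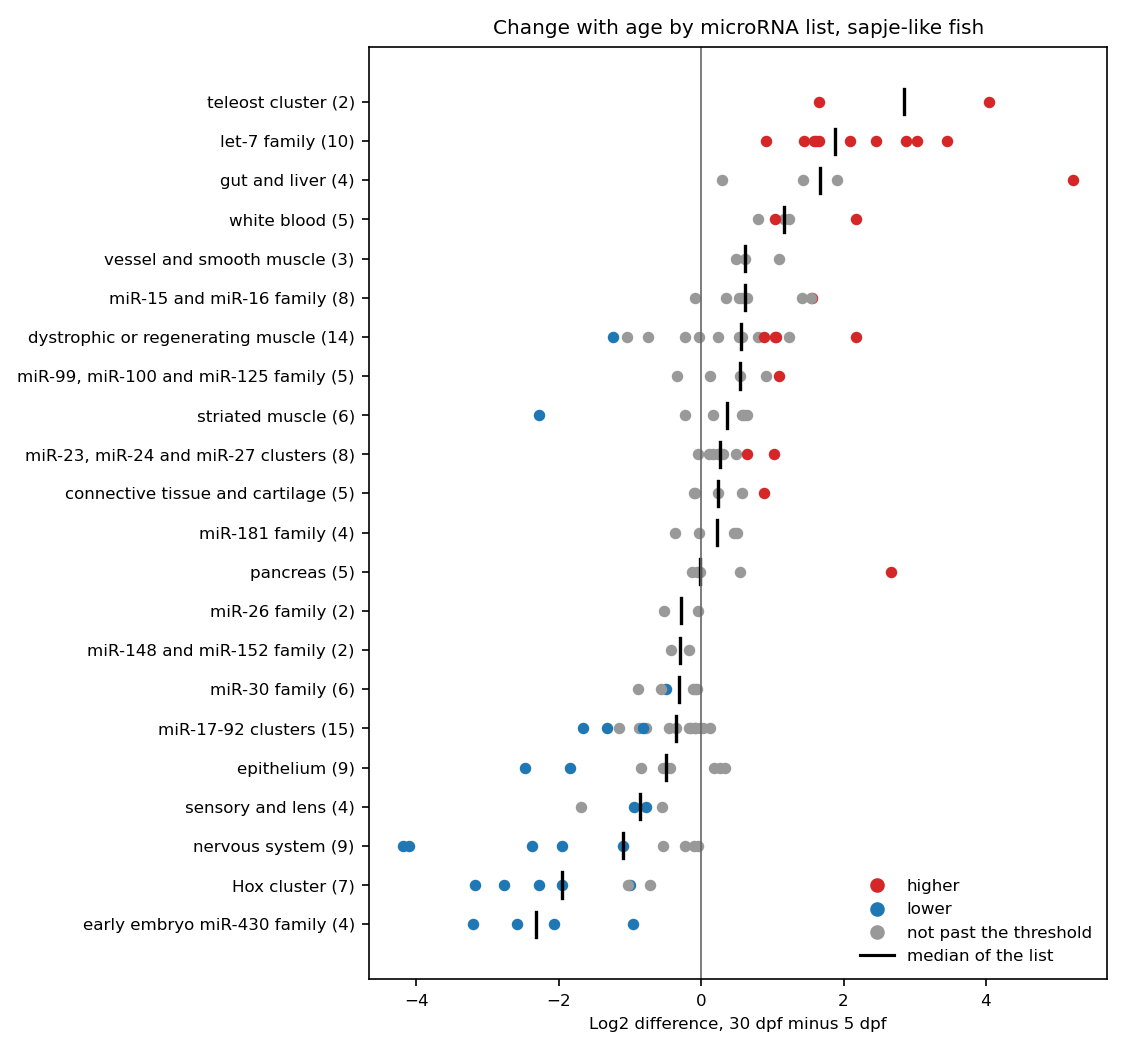
Log2 difference between 30 dpf and 5 dpf for the tested members of each microRNA list with over 1 tested member (number tested in brackets), in sapje-like fish. Red points passed the limma test as higher, blue as lower, grey did not pass, and black bars mark list medians, which run from -2.32 for the miR-430 family to 2.85 for miR-462 and miR-731.

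The liver microRNA miR-122 rose with the largest fitted difference of all tested probes. It was at 7.36 and 8.79 at 5 dpf and at 12.94, 13.08 and 13.64 at 30 dpf. The samples of the ages were over 4 log2 units apart. The difference was 5.23 ± 1.24 (37.5-fold, adjusted p 0.0047), and the call was lost without 5 dpf replicate 1 (adjusted p 0.0635). The error is shared over all genotypes in the fit, and in wild type SLW at 30 dpf miR-122 was at 6.64, 6.97 and 12.09.

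The gut microRNAs did not pass with miR-122. miR-192 was at 12.30 and 12.49 at 5 dpf and at 14.65, 14.65 and 13.43 at 30 dpf. Every 30 dpf sample was above every 5 dpf sample, yet the difference of 1.91 ± 1.58 had an adjusted p of 0.399 with all genotypes in the fit. With only the sapje-like samples in the fit it was 2.03 ± 0.47 with an adjusted p of 0.0295. Its genomic neighbour miR-194a was at 11.10 and 10.45 at 5 dpf and at 12.80, 12.22 and 11.73 at 30 dpf, a difference of 1.43 ± 1.28 (adjusted p 0.434). Thus 1 of 4 gut and liver probes was called, against 15% of all tested probes called higher, and the median was 1.67 log2 units.

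In the pancreas list, 1 of 5 tested members was called, near the 15% of all tested probes called higher. miR-375, which controls insulin release in mammalian islet cells, was at 8.22 and 8.15 at 5 dpf and at 10.13, 11.06 and 11.18 at 30 dpf, a difference of 2.66 ± 0.47 log2 units (6.30-fold, adjusted p 0.000551) that stood under every alternative run. The acinar microRNA miR-217 was at 8.69 and 8.82 against 9.34, 9.27 and 9.34, without overlap, and its difference of 0.54 ± 0.72 did not pass (adjusted p 0.612). miR-216a, miR-216b and miR-7a differed by -0.01, -0.06 and -0.13 at levels near the floor.

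The teleost pair miR-462 and miR-731, whose genes are neighbours, rose together. miR-462 was at 6.97 and 7.32 at 5 dpf and at 10.70, 10.61 and 12.49 at 30 dpf, a difference of 4.04 ± 0.60 log2 units (16.5-fold, adjusted p 0.000159). Replicate 3 was 1.83 above the mean of the other 30 dpf samples. miR-731 was at 6.65 and 6.84 at 5 dpf and 8.19, 8.86 and 8.06 at 30 dpf, with 5 dpf replicate 1 not above background, a difference of 1.65 ± 0.41 (adjusted p 0.00682). Its call was lost without 5 dpf replicate 1, with an adjusted p of 0.0545.

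The fish-annotated miR-739 and miR-738 were also higher. miR-739 was at 9.80 and 10.00 at 5 dpf and at 12.67, 11.96 and 13.22 at 30 dpf, a difference of 2.81 ± 1.02 log2 units with an adjusted p of 0.0495. The ages were apart by nearly 2 log2 units, but 12 of 19 alternatives put the adjusted p above the threshold, among them leaving out either 5 dpf sample or 30 dpf replicate 1 or 3, and wild type SLW at 5 dpf was at 13.94 and 8.25. miR-738 was at 8.73 and 9.13 against 11.39, 9.74 and 10.07, a difference of 1.47 ± 0.41 (adjusted p 0.0144), lost without 5 dpf replicate 1.

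Of 5 tested white blood cell members 2 rose, against 15% of all tested probes, with a median of 1.16 log2 units. In all 5 the 30 dpf samples lay above the 5 dpf samples, as they did for 29.9% of all tested probes. miR-146b, a brake on innate immune signalling, was at 7.96 and 8.65 at 5 dpf and at 9.68, 10.64 and 11.06 at 30 dpf, a difference of 2.17 ± 0.45 (4.49-fold, adjusted p 0.00199) that stood under every alternative run. miR-223, of neutrophils and other myeloid cells, was at 7.60 and 6.88 at 5 dpf and at 8.65, 8.44 and 7.75 at 30 dpf, a difference of 1.04 ± 0.36 (adjusted p 0.0411). Replicate 3 was not above background for miR-223, and its call was lost without 5 dpf replicate 2 or without 30 dpf replicate 1 or 2. miR-146a, miR-150 and miR-155 had differences of 1.24 ± 0.58, 1.16 ± 0.45 and 0.80 ± 0.31 with adjusted p of 0.114, 0.0662 and 0.0606. miR-155, used by activated lymphocytes and macrophages, was not above background at 5 dpf and was at 6.84, 7.16 and 8.22 at 30 dpf. Its probe entered the test through 30 dpf groups alone, so the probe filter favoured a rise. The 3 miR-142 probes, which mark all blood cells, were not above background in enough samples to be tested, so that a defining marker of these cells is missing from the list.

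miR-451, made in red blood cells, was at 8.90 and 8.22 at 5 dpf and at 9.24, 10.53 and 9.59 at 30 dpf, a difference of 1.20 ± 0.42 log2 units with an adjusted p of 0.0445. The ages did not overlap, yet 9 of 19 alternatives removed the call, among them leaving out either 5 dpf sample or 30 dpf replicate 2. Its cluster partner miR-144 was not above background in enough samples to be tested. Of 3 tested vessel and smooth muscle microRNAs none was called by limma: endothelial miR-126 differed by 0.62 ± 0.27 (adjusted p 0.0917), and smooth muscle miR-145 and miR-143 by 1.10 ± 0.42 (adjusted p 0.0606) and 0.49 ± 0.40 (adjusted p 0.391). With only the sapje-like samples in the fit, miR-145 passed at 1.25 ± 0.27 (adjusted p 0.0243).

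**Figure D4:**
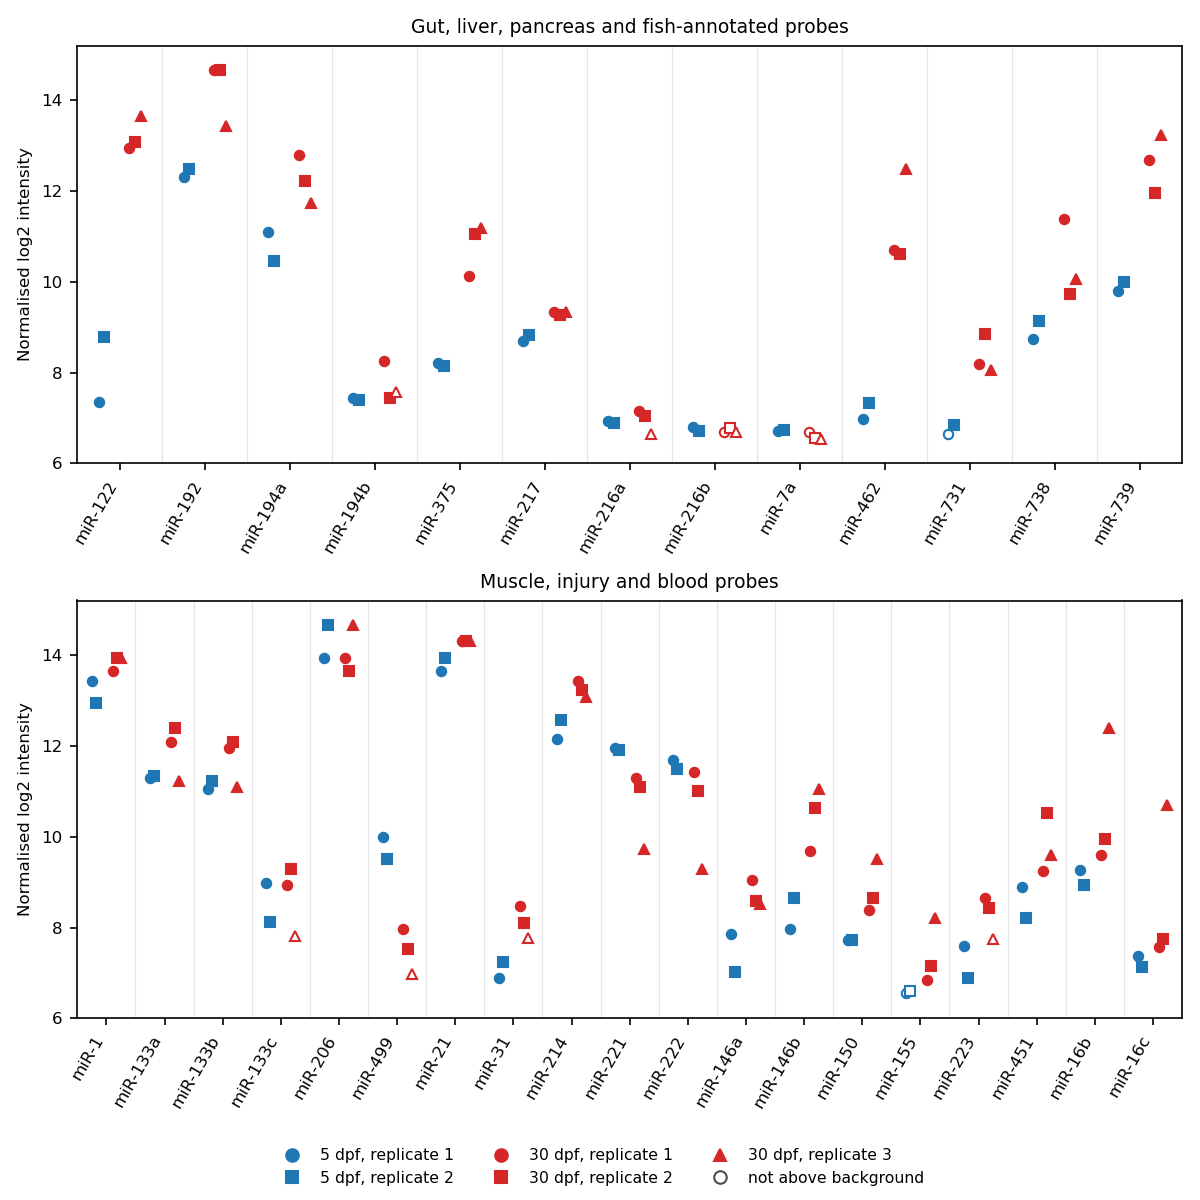
Normalised log2 intensity in each sapje-like sample (5 dpf blue, n = 2; 30 dpf red, n = 3; the shape gives the replicate; open symbols were not above background) for gut, liver, pancreas and fish-annotated probes (top) and for muscle, injury and blood probes (bottom). miR-122, miR-375 and miR-462 are higher in every 30 dpf sample, miR-499 is lower in every one, and miR-16b and miR-16c are high in 30 dpf replicate 3 alone.

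Among striated muscle microRNAs, the tissue that the mutation affects, miR-499 was the 1 called of 6 tested, all of the others missing the threshold, where 17.4% of all tested probes were called lower. miR-499, encoded in a myosin heavy chain gene and associated with slow and heart muscle, was at 10.00 and 9.50 at 5 dpf and at 7.96, 7.53 and 6.97 at 30 dpf, where replicate 3 was not above background. The difference was -2.28 ± 0.48 log2 units (adjusted p 0.00197), and it stood under every alternative run. miR-1, the most general muscle microRNA, was at 13.43 and 12.94 against 13.64, 13.94 and 13.94, a difference of 0.64 ± 0.29 (adjusted p 0.0998). miR-206, which helps repair muscle in dystrophic mice, was at 13.94 and 14.65 at 5 dpf and 13.94, 13.64 and 14.65 at 30 dpf, overlapping fully, with a difference of -0.23 ± 0.31 (adjusted p 0.628). Since 14.65 is the highest level a probe can have, a rise of miR-206 had little room to show. miR-133a and miR-133b were at 11.06 to 11.34 at 5 dpf, at 11.96 to 12.39 in 30 dpf replicates 1 and 2, and at 11.23 and 11.10 in replicate 3. Their differences of 0.60 ± 0.54 and 0.58 ± 0.57 did not pass (adjusted p 0.432 and 0.479). The median of the 6 was 0.37, or -0.37 with no normalization.

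The list of microRNAs linked to dystrophic or regenerating muscle was called in 5 of 14 tested members, 4 higher and 1 lower, a share near the 32.3% of all tested probes, with a median of 0.56 log2 units. miR-146b and miR-223, described with the blood microRNAs, were 2 of the 4. miR-31, which represses dystrophin in mammalian muscle cells, was at 6.88 and 7.25 at 5 dpf and at 8.48, 8.09 and 7.78 at 30 dpf, where replicate 3 was not above background, a difference of 1.05 ± 0.37 (adjusted p 0.0443). The ages did not overlap, but the call was lost without either 5 dpf sample and without 30 dpf replicate 1 or 2. miR-214, which lies beside miR-199 and is expressed in connective tissue and muscle precursors, was at 12.16 and 12.57 at 5 dpf and 13.43, 13.22 and 13.08 at 30 dpf, a difference of 0.88 ± 0.19 (adjusted p 0.00257) whose sign turned to -0.31 with no normalization and whose call was lost without 5 dpf replicate 1. miR-199 differed by 0.58 ± 0.31 (adjusted p 0.162) and miR-199* by 0.24 ± 0.29 (adjusted p 0.572).

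The called fall of that list was miR-221, which keeps cells in division and drops as mammalian muscle cells differentiate. It was at 11.96 and 11.91 at 5 dpf, at 11.29 and 11.10 in 30 dpf replicates 1 and 2 and at 9.74 in replicate 3, a difference of -1.24 ± 0.44 (adjusted p 0.0445). The call was lost without replicate 3 and also without either 5 dpf sample. Its neighbour miR-222 had the same layout, with 11.68 and 11.48 against 11.43, 11.00 and 9.30, and did not pass (-1.04 ± 0.56, adjusted p 0.164). miR-21, which rises in fibrotic tissue, was at 13.64 and 13.94 at 5 dpf and at 14.30 in each 30 dpf sample, a difference of 0.53 ± 0.20 (adjusted p 0.0615). The level of 14.30 is just under the highest a probe can have, so a larger rise had little room to show.

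In the miR-15 and miR-16 family, which slows the cell cycle in mammals, 1 of 8 tested members was called, near the 15% of all tested probes called higher, and 7 had positive differences. miR-15a was at 8.12 and 8.06 at 5 dpf and at 9.50, 9.55 and 10.00 at 30 dpf, a difference of 1.56 ± 0.24 log2 units (2.96-fold, adjusted p 0.000159). miR-16b and miR-16c lie beside miR-15a in the RefSeq annotation and gave the widest spread among the 30 dpf samples. miR-16b was at 9.27 and 8.94 at 5 dpf, 9.59 and 9.96 in 30 dpf replicates 1 and 2, and 12.39 in replicate 3, while miR-16c was at 7.38 and 7.13, then 7.57, 7.75 and 10.70. Neither passed (adjusted p 0.0789 and 0.155). Replicate 3 was thus 2.62 and 3.05 above the mean of the other 30 dpf samples.

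Among the miR-23, miR-24 and miR-27 clusters, 2 of 8 tested members rose, against 15% of all tested probes, and the median was 0.27 log2 units, or -0.29 with no normalization. miR-23a, of endothelium and muscle in mammals, was at 11.23 and 11.60 at 5 dpf and 12.16, 12.94 and 12.09 at 30 dpf, a difference of 1.03 ± 0.27 (adjusted p 0.00943) that turned to -0.09 with no normalization and was not called without 5 dpf replicate 1 or 30 dpf replicate 2. Its neighbour miR-27e rose by 0.64 ± 0.23 (adjusted p 0.0456), a call lost without 5 dpf replicate 2 or any 30 dpf sample, and miR-24 differed by 0.16 ± 0.35 (adjusted p 0.774). The miR-30 family had 1 call in 6, a share near the 17.4% of all tested probes called lower. It was miR-30a at -0.50 ± 0.17 (adjusted p 0.0378), with 30 dpf replicate 3 not above background. miR-30a turned to 0.62 under median scaling and lost its call without 5 dpf replicate 1 or 30 dpf replicate 1 or 3. No member of the miR-26, miR-29, miR-101, miR-148 and miR-152, or miR-181 lists was called by limma, with differences from -0.52 for miR-26b to 0.50 for miR-181b. The remaining call was miR-210*, from a hairpin that responds to low oxygen in mammals, at -0.99 ± 0.29 (adjusted p 0.0184), lost without either 5 dpf sample or 30 dpf replicate 3, while miR-210 differed by -0.76 ± 0.33 (adjusted p 0.0925).

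The same age step was measured in the other genotypes with samples of their own. All genotypes shared the same fit, error, dye term and normalization, so their calls are not independent of each other. By the inferred pairing, each sapje-like sample also shared an array with a wild type SLW sample. Wild type SLW had 69 calls (41.3%), of which 23.4% of all tested probes were higher and 18% lower. Sapje had 59 (35.3%), 17.4% higher and 18% lower, and wild type SW had 91 (54.5%), 26.3% higher and 28.1% lower. Of the 25 probes called higher in sapje-like fish, 15 (60%) were called higher in all 3 other genotypes, and of the 29 called lower, 18 (62.1%) were called lower in all 3. By genotype, the shared rises were 17 in wild type SLW, 20 in sapje and 20 in wild type SW, which is 43.6%, 69% and 45.5% of those genotypes' own rises. The shared falls were 21, 19 and 18, or 70%, 63.3% and 38.3% of theirs. No probe called in sapje-like fish was called in the opposite direction in another genotype. All 4 miR-10 probes, both miR-9 arms and miR-430a, miR-430b and miR-430c were called lower in each genotype, whereas miR-430j was not called in sapje (0.05 ± 0.19) or wild type SW (-0.18 ± 0.19). Every let-7 member had a positive difference in each genotype, although let-7b, let-7d, let-7g and let-7h were not called in all of them. The miR-430 probes entered the test through groups of the younger age alone, and let-7e, let-7h and let-7j through the older alone. For these probes the filter favoured the same direction in every genotype, so their sharing is no separate support. The calls shared by all genotypes include miR-430a, miR-430b, miR-430c, let-7e and let-7j. let-7a differed by 2.44 ± 0.43 log2 units in wild type SLW, 3.12 ± 0.43 in sapje and 3.55 ± 0.43 in wild type SW beside 3.46 ± 0.43 in sapje-like, and miR-9* by -3.61, -3.57 and -2.92 beside -4.19.

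The difference between age changes was then tested itself. Against wild type SLW none of 167 probes passed (0%; limma adjusted p, with 31, or 18.6%, at an unadjusted p under 0.05). That count moved with single samples, as 24 probes passed without wild type SLW 5 dpf replicate 2, 9 without wild type SLW 30 dpf replicate 8, 3 without wild type SW 5 dpf replicate 2, 3 without wild type SW 30 dpf replicate 2, 2 without wild type SLW 30 dpf replicate 5 and 2 without sapje-like 5 dpf replicate 2. Against sapje 2 probes passed (1.2%), with 19 (11.4%) at an unadjusted p under 0.05. Against the mean of the other 3 genotypes 1 did (0.599%), with 36 (21.6%). With samples inferred to share an array treated as a random block, 2 passed against wild type SLW, 2 against sapje and 7 against the mean. Leaving out single samples gave 0 to 5 calls against sapje, with 0 without sapje 5 dpf replicate 2, and 0 to 14 against the mean. The highest of both ranges, like the highest count against wild type SLW, came without wild type SLW 5 dpf replicate 2. Such fits leave that group to replicate 1 alone, a sample that stood apart. Its control probes for 5S ribosomal RNA had a mean log2 intensity of 8.69, where every other sample was at 10.94 or more. Its miR-739 was at 13.94 against 8.25 in replicate 2. A fit without replicate 1 was among those run, but it leaves the group to replicate 2 alone. The part of replicate 1 in these counts was not tested beyond that.

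The probes that differed from sapje were miR-430b and miR-430a. miR-430b was at 9.64 and 10.13 in sapje-like and at 8.39 and 8.32 in sapje at 5 dpf, and not above background at 30 dpf in any sample of either line. The fitted contrast was -1.42 ± 0.22 log2 units (-3.21 against -1.79, adjusted p 0.00302). miR-430a was at 9.21 and 9.30 in sapje-like and 7.47 and 7.60 in sapje at 5 dpf, with the same floor at 30 dpf and a fitted contrast of -1.60 ± 0.34 (-2.58 against -0.98, adjusted p 0.0293). With both lines at the floor at 30 dpf, neither fall was measured in full. The contrasts show the gap at 5 dpf, where sapje-like was the brighter in every sample. They cannot tell which line fell further. In wild type SLW the fitted differences with age were -3.50 and -3.19. The call for miR-430b was lost in 5 of 33 alternatives, which were cyclic loess, median scaling, no normalization, the deposited table and leaving out sapje 5 dpf replicate 2. That for miR-430a was lost in 15 of 33 alternatives, among them leaving out either 5 dpf sample of either line, sapje-like 30 dpf replicate 1 or 2, sapje 30 dpf replicate 2 or 3, or wild type SW 30 dpf replicate 4.

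miR-15b was the probe that differed from the mean of the other 3 genotypes. In sapje-like fish it was at 9.13 and 8.32 at 5 dpf and at 9.21, 8.99 and 9.09 at 30 dpf, with overlapping ages and a difference of 0.35 ± 0.30 (adjusted p 0.412). It rose by 2.39 ± 0.30 in wild type SLW, 1.39 ± 0.30 in sapje and 2.49 ± 0.30 in wild type SW. At 30 dpf the other genotypes were at 9.50 to 11.00, above all 3 sapje-like samples. At 5 dpf they were at 7.69 to 8.54, all below sapje-like replicate 1 at 9.13, while sapje-like replicate 2 at 8.32 lay among them. The age change was lower in sapje-like by 1.74 ± 0.35 log2 units than their mean (coded as -1.74, adjusted p 0.0376), a call that 14 of 33 alternatives removed. Among these were leaving out sapje-like 5 dpf replicate 1, sapje-like 30 dpf replicate 2 or 3, either sapje 5 dpf sample, sapje 30 dpf replicate 3, or replicate 1 of either wild type at 5 dpf.

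Of the age calls in sapje-like fish, 3 rises and 8 falls were called in none of the other genotypes, and none of these passed the test of the difference. They were miR-122, miR-125c and miR-31 among the rises, and miR-499, miR-203a, miR-203b, miR-20b, miR-221, miR-363, miR-30a and miR-210* among the falls. For miR-499 the age differences were -0.02 ± 0.48 in wild type SLW, -0.73 ± 0.48 in sapje and 1.01 ± 0.48 in wild type SW against -2.28 ± 0.48, and the difference from their mean was -2.37 ± 0.55 (adjusted p 0.0516). For miR-203a the contrast of -1.91 ± 0.50 had the same adjusted p of 0.0516. For miR-122 the other changes were -0.31 ± 1.24, 2.11 ± 1.24 and -0.76 ± 1.24, and the difference from their mean was 4.88 ± 1.43 (adjusted p 0.093). Without wild type SLW 30 dpf replicate 8 it was 5.38 ± 0.79 and passed (adjusted p 0.00246), as it did without sapje 30 dpf replicate 1 (5.26 ± 1.35, adjusted p 0.0436) and under median scaling (5.39 ± 1.32, adjusted p 0.0279). Other digestive microRNAs moved with miR-122 in the same samples. The log2 levels of the 4 gut and liver probes, miR-122 among them, were summed, so miR-122 is part of each sum. At 30 dpf the sums were 28.68 to 29.58 in wild type SW and 28.68, 29.03 and 47.40 in wild type SLW replicates 2, 5 and 8. They were 36.62 to 47.63 in sapje and 46.37 to 48.64 in sapje-like, against 36.32 to 43.12 over all 5 dpf samples. miR-192 was at 7.93 to 8.22 in wild type SW and at 7.75, 7.75 and 14.65 in wild type SLW, and miR-217 at 7.04 to 7.25 and at 7.18, 7.29 and 9.80. The part of these markers in the contrast was not tested. The threshold was also passed by miR-499 and miR-203a when some single samples were left out, with adjusted p over those settings from 0.0133 and 0.0221 upward. With all samples, both passed under median scaling (limma adjusted p 0.0279 and 0.0495), no normalization (0.0334 each) and the array as a random block (0.043 each). miR-499 also passed with the empty-spot median subtracted (0.0285) and no dye term (0.0451). miR-203a also passed among the probes above background in all 20 samples (0.041). In the main fit these contrasts missed the threshold, which does not show that the genotypes changed alike.

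**Figure D5:**
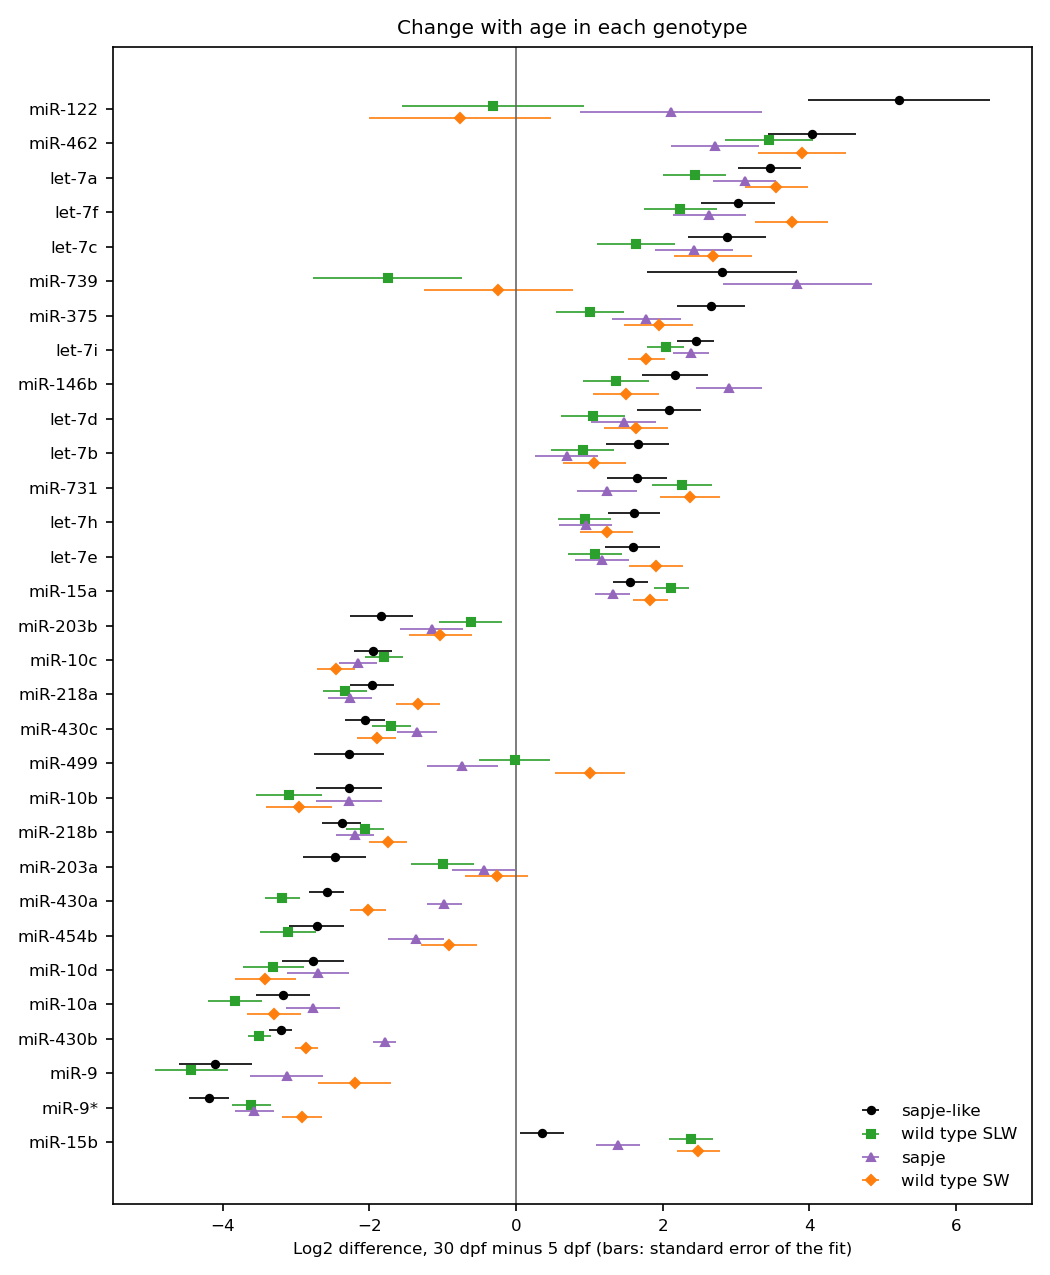
Log2 difference between 30 dpf and 5 dpf in each genotype (bars are standard errors of the fit; each genotype has 2 samples at 5 dpf and 3 at 30 dpf) for the 15 largest called rises and 15 largest called falls in sapje-like fish, and for miR-15b. Many probes lie close together in all 4 genotypes, while others are spread more widely, among them miR-122, miR-739, miR-499, miR-203a, miR-430a, miR-430b and miR-15b.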

How the data were processed

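Small RNA of whole fish was assayed by a service provider (LC Sciences) after poly(A) tailing, tag ligation and Cy3 or Cy5 staining, per the labels' protocols. The deposited scanner files hold the mean intensity of each of 3968 spots in 1 channel, per the file headers with no background removed; image software is not given in the sources used here. The deposited value table holds the authors' processed intensity per probe, with its processing not stated; log2 of its values correlated at 0.964 to 0.981 with the scanner values of the same sample, so its direction is settled and its scale and centring are unknown. Its medians in the sapje-like samples were 138 and 110 at 5 dpf and 113, 120 and 95.3 at 30 dpf. It served as an alternative.

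Here, normexp with an offset of 50 was applied over all spots, log2 taken, the 12 spots of a mature probe averaged and samples quantile-normalized. Limma 3.58.1 (R 4.3.3) fitted 8 groups of genotype and age with a dye term to all 20 samples (11 residual degrees of freedom), since the sapje-like groups hold few samples, and p-values were adjusted over 167 probes by Benjamini-Hochberg. The sapje-like channels were Cy3 and Cy5 at 5 dpf and Cy3, Cy5 and Cy3 at 30 dpf.

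Spot residuals of 36 bright probes, a brightness limit chosen after seeing the pairings, paired the 20 samples into 10 arrays (correlations 0.424 to 0.851), each with 1 mutant and 1 wild type channel of the same cohort and age. Array and age therefore cannot be separated. With the array as a random block, 53 probes were called. That block models only what channels on an array share, so it does not separate array from age. The labels give no hybridisation batch or scan date. A bound was taken where no sample of a group was above background. It sets the bright group's mean against, per array, the higher of the probe's level and the lowest level above background. For arrays, the number of samples limits precision. RefSeq (GRCz12tu) was used for neighbouring genes within 10 kb, with 187 of 191 names matched. The comparison, the named probes (the 15 largest called rises and falls with non-overlapping ages, probes called between genotypes, and list members) and the lists were chosen with earlier results of these data known. The fitting was tested on simulated data. Alternatives covered background correction, normalization, probe filter, covariates, blocks, values and left-out samples.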

Additional observations from a re-analysis of the deposited data

Results flagged for a closer look

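For 3 probes the contrast of age changes between genotypes passed the test of the difference itself. Against sapje, the contrast of the changes was -1.42 log2 units for miR-430b and -1.6 for miR-430a, where neither line was above background at 30 dpf and the lines were apart at 5 dpf. Against the mean of the other 3 genotypes it was -1.74 for miR-15b, whose fitted age change was the lower in sapje-like fish. Outside the microRNA probes, the 6 control probes for 5S ribosomal RNA gave signal: at least 4 of them were above background in every sapje-like sample. Groups of 2 and 3 samples are too small for a test of single outlying samples.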

How the results depend on the processing

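Of the 54 age calls, 22 passed under every alternative run and 32 were lost under at least 1, among them 23 lost without at least 1 sapje-like sample. The count of age calls was 99 with median scaling (80.8% higher, against 46.3% in the main analysis) and 22 among the 81 probes above background in all 20 samples, where fewer probes were tested. With no normalization 22.2% of 54 calls were higher. With only the sapje-like groups in the fit the count of age calls was 36, of which 33 were among the 54 main calls. That fit gained miR-145, miR-17a and miR-192. The calls it lost included let-7e, let-7h, let-7j, miR-124, miR-184, miR-214, miR-430j and miR-454a. That setting adds no separate value for the contrast with the mean of the other genotypes, whose fit already holds all groups. Leaving out each sapje-like sample gave 38 to 52 calls, a lone remaining 5 dpf sample being assumed to vary like the other groups. The fit with the replicate number as a block gave 45 age calls, 0 between sapje-like and wild type SLW, 1 against sapje and 0 against the mean of the other genotypes; the numbers name samples of different fish at different ages and do not pair them (correlations of deviations 0.217 and -0.138). The deposited value table gave 64 calls, and larger sizes for dim families, with medians of 3.66 for let-7 and -4.82 for miR-430.

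Directions turned under median scaling for miR-10d* (0.11), miR-124 (0.18), miR-30a (0.62), miR-363 (0.55), miR-430j (0.42) and miR-454a (0.26), and with no normalization for miR-125c (-0.25), miR-214 (-0.31) and miR-23a (-0.09); the cause was not tested.

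Counts of differing age changes were unstable, and the cause was not tested. Against wild type SLW they were 1 with the median over spots, and 2 with the strictest probe filter, with no dye term and with the array as a random block, and 0 to 24 leaving out each sample. Against sapje they were 4 with the empty-spot median subtracted, 1 with quantile normalization within each age, 0 with cyclic loess, median scaling, no normalization, the strictest filter and the deposited table, and 0 to 5 leaving out each sample, with 0 without sapje 5 dpf replicate 2 and 5 without wild type SLW 5 dpf replicate 2. Against the mean of the other 3 they were 3 with the empty-spot median subtracted, 39 with median scaling, 25 with no normalization, 4 with the strictest filter, 5 with no dye term and 7 with the array block. They were 0 with no background correction, cyclic loess, quantile normalization within each age, all probes tested and the deposited table, and 0 to 14 leaving out each sample, the highest being without wild type SLW 5 dpf replicate 2. Replicate 3 at 30 dpf, with 105 probes above background, limits what can be read from dim probes.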

Other observations

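Of the star strands, the probes marked * for the other strand of a hairpin, 15 were tested. Of these, 3 were called, miR-9*, miR-10d* and miR-210*, all lower at 30 dpf. That share is near the 17.4% of all tested probes called lower. Of the 54 called probes, 20 lay 1 base from another probe on the array and 26 differed from every other probe by 3 or more bases. Among the latter were miR-122, miR-462, miR-375, miR-9, miR-9*, miR-499 and miR-18c, with miR-18c the closest of these to another probe, at 3 bases.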
